A study of Mus musculus with 9 samples.

Results

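The genes described here are 40 mouse genes that sense DNA damage or repair it, out of 16873 genes measured. They were given by name and found by matching gene symbols to the Entrez gene IDs of the expression files. All 40 were found. They fall into 7 pathways, with 8 genes of damage sensing and signalling, 8 of homologous recombination with the RecQ helicases, 3 of the Fanconi anaemia pathway, 5 of non-homologous end joining, 8 of base excision and single-strand break repair, 6 of nucleotide excision repair and 2 of mismatch repair. Heart RNA was sequenced from Sting-deficient (Sting-/-) mice given doxorubicin (Sting-/- DOX), wild-type mice given doxorubicin (WT DOX) and wild-type mice given saline (WT saline). Each group has 3 libraries. The Sting-/- deletion is not the endothelial one that the study also used. Doxorubicin, an anthracycline that poisons topoisomerase II, was given at low dose to produce a chronic cardiotoxicity, and the study asked what the cGAS-STING pathway contributes to it. The labels give no age, sex, strain background, dose or duration. They do not tie libraries to single mice, so p-values measure the spread between libraries, which may be technical. Since Sting-/- hearts are here under doxorubicin throughout, what the genotype does alone and what it does under the drug cannot be told apart.

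Cells answer DNA damage in layers. The kinases Atm and Atr recognise double-strand breaks and single-stranded DNA and pass the signal through the checkpoint kinases Chek2 and Chek1, and Mdc1 and Trp53bp1 build the chromatin platform at the break. Breaks are then rejoined directly by end joining, in which the Ku pair Xrcc5 and Xrcc6 seizes the ends, or copied from the sister chromatid by homologous recombination, which works mainly in cells that have replicated their DNA. Oxidised, deaminated or alkylated bases are cut out by base excision repair, bulky adducts by nucleotide excision repair and replication errors by mismatch repair. Adult cardiomyocytes hardly divide, whereas doxorubicin can break their DNA through topoisomerase II and oxidise it, and DNA that leaks into the cytosol is the ligand of the sensor cGAS, which signals through STING.

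Of the 40 genes, 31 have a promoter window in the RefSeq table (300 bases around each transcription start, build GRCm38.p6), and Rad50, Nbn, Xrcc2, Wrn, Fancd2, Prkdc, Polb, Ddb2 and Xpc have none there. The windows shown belong to Chek2, Lig1 and Ung, which led the changes among the 34 genes tested below, and to Xrcc6, one of the Ku pair. Capitals mark an E2F-like motif, a match to TTTCCCGC, TTTGGCGC, TTTCGCGC or TTTGCCGC on either strand. E2F factors are known for driving genes of DNA replication. Each sequence is written 5′ to 3′ on the gene's own strand.
Chek2 chr5:110839733-110840032 (plus strand): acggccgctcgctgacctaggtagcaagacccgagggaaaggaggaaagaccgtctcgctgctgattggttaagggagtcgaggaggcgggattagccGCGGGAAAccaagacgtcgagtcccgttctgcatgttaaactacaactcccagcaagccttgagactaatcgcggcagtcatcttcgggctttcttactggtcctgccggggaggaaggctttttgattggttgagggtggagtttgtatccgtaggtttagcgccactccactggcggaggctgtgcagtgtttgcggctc
Lig1 chr7:13278576-13278875 (plus strand): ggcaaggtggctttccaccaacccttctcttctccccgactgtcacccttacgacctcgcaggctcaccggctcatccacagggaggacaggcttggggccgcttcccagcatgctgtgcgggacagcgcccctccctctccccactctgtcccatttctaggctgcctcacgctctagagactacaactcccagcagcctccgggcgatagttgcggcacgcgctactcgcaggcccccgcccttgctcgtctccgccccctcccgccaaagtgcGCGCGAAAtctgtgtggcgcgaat
Xrcc6 chr15:82016119-82016418 (plus strand): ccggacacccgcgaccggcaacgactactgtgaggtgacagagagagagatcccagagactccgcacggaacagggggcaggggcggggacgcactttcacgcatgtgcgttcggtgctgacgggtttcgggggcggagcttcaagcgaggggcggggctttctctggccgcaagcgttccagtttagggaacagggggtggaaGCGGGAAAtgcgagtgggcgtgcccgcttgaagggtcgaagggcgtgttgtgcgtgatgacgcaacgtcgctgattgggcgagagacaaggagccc
Ung chr5:114130185-114130484 (plus strand): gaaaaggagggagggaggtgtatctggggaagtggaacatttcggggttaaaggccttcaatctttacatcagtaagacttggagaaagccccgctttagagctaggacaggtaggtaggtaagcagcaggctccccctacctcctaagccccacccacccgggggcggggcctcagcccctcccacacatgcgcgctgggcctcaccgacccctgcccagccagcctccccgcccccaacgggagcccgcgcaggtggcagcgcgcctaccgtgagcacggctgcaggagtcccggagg

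The window of Lig1 is the second of its 3 in the table, and the other two hold no match, nor does the window of Ung. Matches stood in the windows of 6 of the 31 genes (19.4%), Brca2, Chek2, Lig1, Mdc1, Msh6 and Xrcc6, against 4.61% of the 9990 tested genes with a window and 2.26% of all 32851 windows. A CCAAT box (CCAAT) was found for 17 of the 31 genes (54.8%), against 43% of the tested genes and 37.4% of all windows. The other 3 motifs were rarer: the cell-cycle homology region CHR (TTTGAA or TTCGAA) for 2 genes (Apex1 and Atr, 6.45%) against 16.6% of the tested genes, an NRF1-like motif for 1 (Lig4, 3.23%) against 2.31%, and a p53 half-site for 2 (Fanca and Neil1, 6.45%) against 8.49%. Both strands were read, and each motif was searched on its own, so that 2 motifs could share bases. Of the 6 genes with an E2F-like match, Lig1, Mdc1 and Msh6 rose with doxorubicin in WT hearts in the tests below, on values as deposited. Chek2 and Xrcc6 did not pass there, and Brca2 was not tested. In Sting-/- against WT hearts given doxorubicin, Chek2, Mdc1 and Msh6 rose, Xrcc6 fell and Lig1 did not pass. A match of letters is a description and does not show binding.

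Levels are given in FPKM, a fragment count scaled to transcript length and to the library's total, so that levels can be set between genes. From the steps between low values, a library held roughly 8100000 to 8400000 counted fragments in Sting-/- DOX hearts, 13100000 to 13700000 in WT DOX hearts and 11400000 to 11700000 in WT saline hearts. Sting1 checked the genotype, with 0.06, 0 and 0 FPKM in the Sting-/- DOX libraries, against 17.5, 18 and 17.8 FPKM in the WT DOX libraries and 5.1, 5.43 and 5.93 FPKM in the WT saline libraries. The tissue label was met, since all 14 cardiomyocyte markers were detected in each group. Their summed level nevertheless differed, at 11710 to 12280 FPKM in Sting-/- DOX hearts, 54150 to 57500 FPKM in WT DOX hearts and 83030 to 83970 FPKM in WT saline hearts, and 14 of 14 markers fell in Sting-/- DOX against WT DOX hearts and 13 of 14 in WT DOX against WT saline hearts. In the same order of groups, 10 fibroblast markers summed to 6996 to 7381, 1375 to 1415 and 1007 to 1034 FPKM, 10 endothelial markers to 1373 to 1473, 324 to 332 and 332 to 344 FPKM, and 11 macrophage and monocyte markers to 2945 to 3067, 1460 to 1643 and 501 to 552 FPKM. The 6 mesothelial markers summed to 94.7 to 98, 5.77 to 7.69 and 4.06 to 6.25 FPKM and 6 erythroid markers to 8481 to 9700, 1498 to 1638 and 2454 to 2549 FPKM, so the Sting-/- DOX hearts stood apart from both WT groups. Markers of neutrophils (5 genes) summed to 82.2 to 97.5, 209 to 276 and 6.31 to 7.02 FPKM, those of T and natural killer cells (9 genes) to 7.67 to 8.85, 11.5 to 27.2 and 4.42 to 5.56 FPKM, and those of B cells (5 genes) to 6.79 to 7.68, 3.9 to 5.04 and 1.56 to 2.63 FPKM. No gene of these lists was at 0 in a whole group. In bulk tissue, fewer cells of a type and less RNA per cell cannot be told apart, and the part that this difference in markers has in the values below was not tested.

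Differences were tested on log2(FPKM + 1) with limma over the 12485 genes that averaged 1 FPKM or more. A gene was called at a Benjamini-Hochberg adjusted p under 0.05, two-sided. A change with doxorubicin is WT DOX against WT saline hearts, and a change between the genotypes is Sting-/- DOX against WT DOX hearts. The added 1 makes a fold change of a gene at low level come out smaller than it is. Of the 40 genes, 34 were tested, and Brca1, Brca2, Rad54l, Blm, Fancd2 and Fanci were below the minimum. Chek1 and Fanca averaged under 1 FPKM in saline hearts and were tested only through the doxorubicin groups, where they are high, so their rises with doxorubicin are descriptions. In WT DOX against WT saline hearts 13 of the 34 rose, 3 fell and 18 did not pass. That is 38.2% higher and 8.82% lower, against 45.3% higher and 21.5% lower among all genes tested. In Sting-/- DOX against WT DOX hearts 17 rose, 10 fell and 7 did not pass, or 50% and 29.4%, against 54.1% higher and 29.7% lower among all genes. The libraries of the 2 groups did not overlap in 18 of the 34 with doxorubicin, against 71.7% of all genes, and in 27 between the genotypes, against 84.8%. The repair genes were thus called no more often than other genes in either comparison, and their counts are not in themselves a result about repair. The counts by pathway below stand beside the same shares of all genes. The median log2 fold change was 0.15 for the 34 genes and 0.13 for all genes with doxorubicin, and 0.14 and 0.25 between the genotypes. The all-gene medians moved with the scaling. They were -0.084 and -0.0071 when each library was scaled by its median ratio to the others and -0.093 and 0.018 after quantile normalization. The split of the calls moved with them. With doxorubicin, 8 genes were called higher and 13 lower by median ratio, and 5 and 14 by quantile. Between the genotypes, the counts were 12 and 13 by median ratio and 11 and 15 by quantile. Among all genes the share of calls that were higher was 67.8% as deposited, 41.3% by median ratio and 40.2% by quantile with doxorubicin, and 64.6%, 49.2% and 51.3% between the genotypes. Calls that held under all alternatives that tested the gene numbered 5 of 13 rises and 2 of 3 falls with doxorubicin, and 11 of 17 rises and 10 of 10 falls between the genotypes. Exons of Apex1, Ddb1, Ddb2, Ercc1, Fanca, Fanci, Lig1, Lig3, Msh6, Ogg1, Rad54l, Trp53bp1, Xpa, Xrcc4 and Xrcc6 overlap a measured gene on the other strand. Whether reads were counted by strand is not given in the sources used here, so these values are uncertain to that extent.

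**Figure D1:**
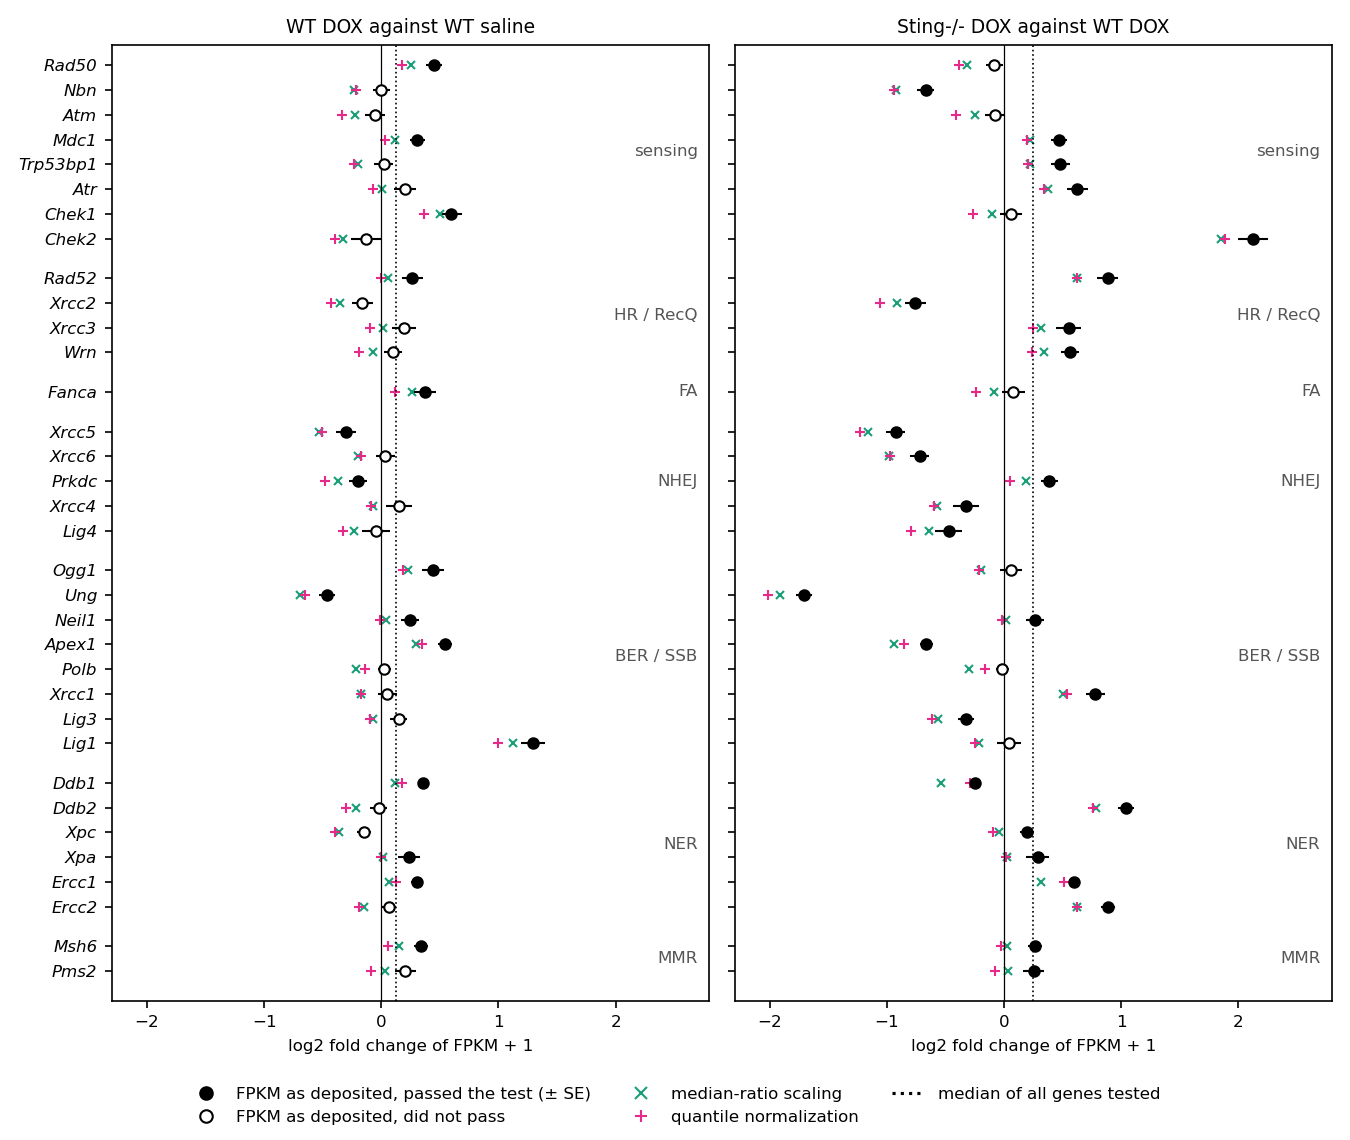
Log2 fold change ± SE of the 34 tested genes in Sting-/- DOX against WT DOX and in WT DOX against WT saline hearts, by pathway, with filled points for genes that passed and crosses and plus signs for the same genes after median-ratio scaling and quantile normalization. Chek2 stands furthest right at 2.13 and Ung furthest left at -1.71 in the Sting-/- comparison, while Lig1 leads the doxorubicin comparison at 1.29.

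Among the 8 sensing and signalling genes, Chek1, Rad50 and Mdc1 rose with doxorubicin and 0 fell. Between the genotypes Chek2, Atr, Trp53bp1 and Mdc1 rose and Nbn fell. Their summed level was 48.3 to 53.2 FPKM in Sting-/- DOX, 33.9 to 38.1 in WT DOX and 30.8 to 33.8 in WT saline hearts. Chek2 (Entrez gene 50883), the kinase that relays the Atm signal to p53 and the cell cycle, had 18, 15 and 15.7 FPKM in Sting-/- DOX, 2.49, 2.6 and 3.84 in WT DOX and 2.88, 3.87 and 3.23 in WT saline hearts. Every Sting-/- DOX library was far above every library of both WT groups, which overlapped each other. Its mean of 16.2 ± 1.55 FPKM was 5.45 times the 2.98 ± 0.75 FPKM of WT DOX hearts (SD, n = 3 each). The log2 fold change of Chek2 was 2.13 ± 0.13 (SE, adjusted p = 9.22e-09) in limma, larger than that of 97.6% of the genes tested. In WT DOX against WT saline hearts the log2 fold change was -0.13 (adjusted p = 0.374), which did not pass as deposited.

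Chek1 (Entrez gene 12649), the kinase that relays the Atr signal and restrains replication, showed the other pattern, with 1.53, 1.32 and 1.3 FPKM in Sting-/- DOX, 1.13, 1.48 and 1.25 in WT DOX and 0.53, 0.46 and 0.55 in WT saline hearts. Both doxorubicin groups were above saline and overlapped each other. The log2 fold change of Chek1 was 0.59 ± 0.093 (SE, adjusted p = 1.30e-04) in WT DOX against WT saline hearts, a 2.51-fold difference of the means, and 0.061 (adjusted p = 0.549) between the genotypes. Its saline mean was under 1 FPKM, and it reached the minimum for testing through the doxorubicin groups. Atr itself, the kinase that senses single-stranded DNA, ranged over 5.75 to 6.5 FPKM in Sting-/- DOX, 3 to 3.88 in WT DOX and 2.62 to 3.21 in WT saline hearts. It rose between the genotypes by 0.63 ± 0.093 (SE, adjusted p = 4.85e-05) and did not pass with doxorubicin, at 0.20 (adjusted p = 0.0756). Atm, the double-strand break kinase, lay at 1.43 to 1.73 FPKM in Sting-/- DOX, 1.62 to 1.73 in WT DOX and 1.57 to 1.93 in WT saline hearts, and passed in neither comparison.

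Of the break-binding factors, Nbn and Rad50, which with Mre11 form the complex that tethers broken ends, were called in different comparisons. Nbn had 7.43, 7.12 and 7.95 FPKM in Sting-/- DOX, 12.1, 11.9 and 13.5 in WT DOX and 13.6, 12.5 and 11.5 in WT saline hearts. The Sting-/- DOX libraries lay below all others and the WT groups overlapped. The log2 fold change of Nbn was -0.67 ± 0.072 (SE, adjusted p = 2.74e-06) between the genotypes and -0.0011 (adjusted p = 0.991) with doxorubicin. Rad50 lay at 3.98 to 4.54 FPKM in Sting-/- DOX, 4.25 to 4.77 in WT DOX and 2.9 to 3.13 in WT saline hearts. It rose with doxorubicin by 0.45 ± 0.070 (SE, adjusted p = 1.28e-04), while between the genotypes it was -0.082 (adjusted p = 0.289) as deposited and was called lower under both other scalings (-0.32 and -0.38). Mdc1, the adaptor that binds marked chromatin at breaks, lay at 5.8 to 6.13 FPKM in Sting-/- DOX, 3.83 to 4.29 in WT DOX and 2.86 to 3.2 in WT saline hearts. It rose between the genotypes by 0.47 ± 0.067 (SE, adjusted p = 3.22e-05). With doxorubicin Mdc1 rose by 0.31 ± 0.067 (SE, adjusted p = 0.00151), a call that was lost by median ratio (0.11) and by quantile (0.033). Trp53bp1, which steers breaks towards end joining, lay at 7.42 to 8.87 FPKM in Sting-/- DOX, 5.03 to 6.22 in WT DOX and 5.25 to 5.63 in WT saline hearts. It rose by 0.48 ± 0.080 (SE, adjusted p = 1.27e-04) between the genotypes. Tubgcp4, whose exons overlap those of Trp53bp1 on the other strand, averaged 12.9, 8.08 and 6.46 FPKM in Sting-/- DOX, WT DOX and WT saline hearts.

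**Figure D2:**
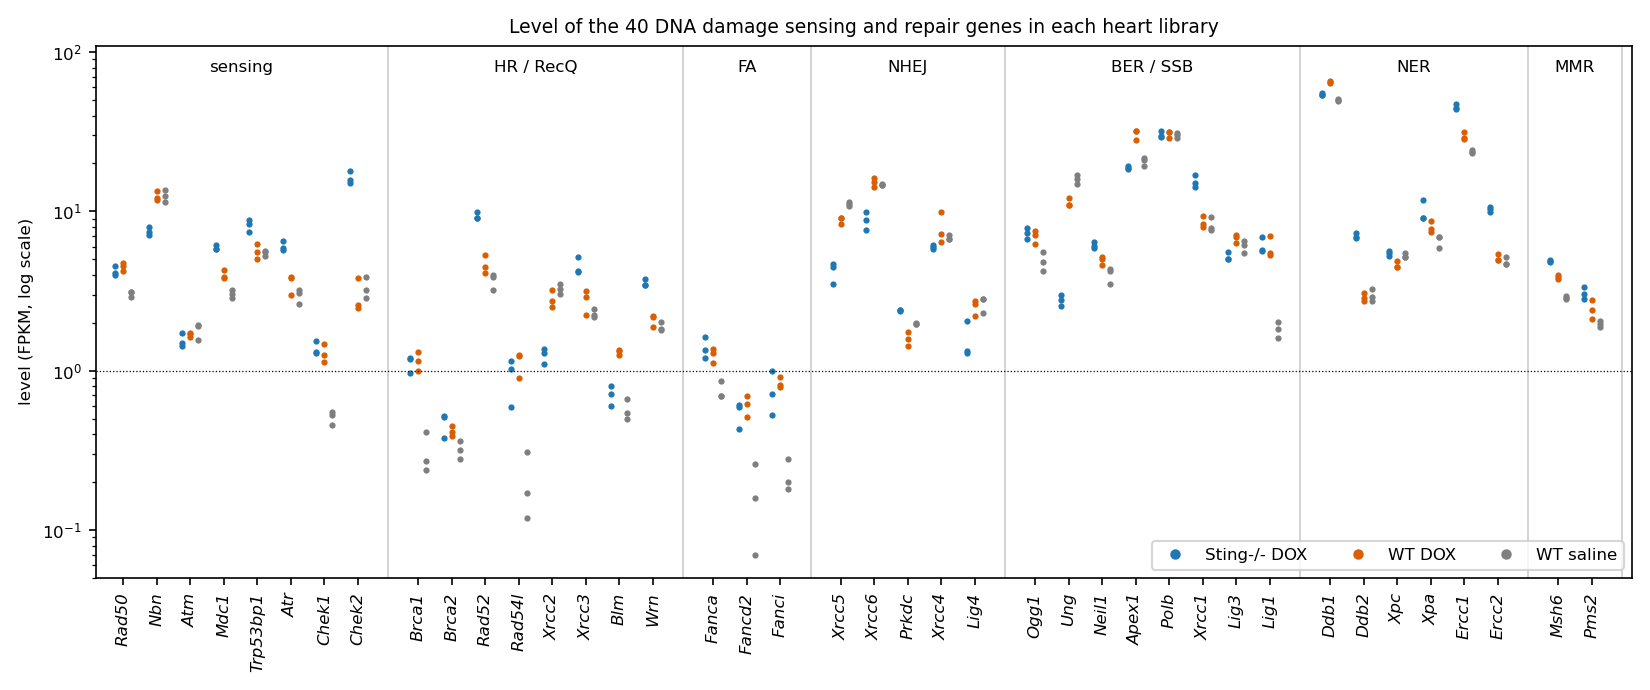
FPKM (log axis) of the 40 genes in each of the 9 libraries, ordered by pathway, with a dotted line at the 1 FPKM minimum for testing. Ddb1 is highest in every group, Polb stays between 28.9 and 32.1 FPKM, and Brca2, Fancd2 and Fanci stay under the line in all 9 libraries.

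In homologous recombination, 4 of 8 genes could be tested. Rad52 rose with doxorubicin, and between the genotypes Rad52, Wrn and Xrcc3 rose and Xrcc2 fell. All 8 genes summed to 21.6 to 22.4 FPKM in Sting-/- DOX, 15.9 to 17.1 in WT DOX and 11.9 to 12.9 in WT saline hearts. Rad52 (Entrez gene 19365), which anneals single strands, had 9.05, 9.9 and 9.13 FPKM in Sting-/- DOX, 4.51, 4.08 and 5.3 in WT DOX and 3.97, 3.23 and 3.86 in WT saline hearts. The 3 groups did not overlap, and the step between the genotypes was the larger at 0.88 ± 0.090 (SE, adjusted p = 1.51e-06), against 0.26 ± 0.090 (SE, adjusted p = 0.0216) with doxorubicin. The doxorubicin step was lost under both other scalings (0.061 and, reversed, -0.0043), without WT saline replicate 2 (0.19) and without WT DOX replicate 3 (0.18). Xrcc2 and Xrcc3 both act in strand exchange, and they went opposite ways between the genotypes. Xrcc2 had 1.29, 1.37 and 1.11 FPKM in Sting-/- DOX, 3.22, 2.74 and 2.52 in WT DOX and 3.52, 3.26 and 3.03 in WT saline hearts. It was -0.76 ± 0.090 (SE, adjusted p = 6.42e-06) between the genotypes, with no overlap, and did not pass with doxorubicin, at -0.16 (adjusted p = 0.135). Xrcc3 lay at 4.17 to 5.19 FPKM in Sting-/- DOX, 2.25 to 3.18 in WT DOX and 2.19 to 2.45 in WT saline hearts. It rose by 0.55 ± 0.10 (SE, adjusted p = 3.41e-04) between the genotypes. The RecQ helicase Wrn, lost in Werner syndrome in humans, lay at 3.45 to 3.76 FPKM in Sting-/- DOX, 1.87 to 2.2 in WT DOX and 1.8 to 2.02 in WT saline hearts. It rose by 0.56 ± 0.077 (SE, adjusted p = 2.31e-05) between the genotypes.

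The other 4 recombination genes, Brca1, Brca2, Rad54l and Blm, averaged under 1 FPKM over the libraries and are described by their levels. Brca1, which directs breaks into recombination, had 0.97, 1.18 and 1.2 FPKM in Sting-/- DOX, 1.31, 0.99 and 1.16 in WT DOX and 0.41, 0.24 and 0.27 in WT saline hearts. Rad54l, a motor protein of strand exchange, had 1.16, 1.02 and 0.59 FPKM in Sting-/- DOX, 1.24, 1.25 and 0.9 in WT DOX and 0.17, 0.12 and 0.31 in WT saline hearts. In both genes every WT DOX library was above every saline library, and the 2 doxorubicin groups overlapped. Blm, the helicase lost in Bloom syndrome in humans, had 0.8, 0.72 and 0.6 FPKM in Sting-/- DOX, 1.33, 1.35 and 1.25 in WT DOX and 0.54, 0.67 and 0.5 in WT saline hearts. Blm was thus highest in WT DOX hearts, with no overlap with either of the other groups. Brca2, which is needed for recombination at breaks, had 0.52, 0.51 and 0.38 FPKM in Sting-/- DOX, 0.41, 0.45 and 0.39 in WT DOX and 0.28, 0.36 and 0.32 in WT saline hearts. Its WT DOX libraries were above saline and overlapped the Sting-/- DOX libraries.

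Without the minimum, with a pseudocount of 0.1, limma called 36.0% of all 16873 genes higher and 16.3% lower in WT DOX against WT saline hearts. In that fit the log2 fold change was 1.64 ± 0.20 (SE, adjusted p = 4.69e-05) for Brca1 and 2.07 ± 0.29 (SE, adjusted p = 1.48e-04) for Rad54l. It was 1.08 ± 0.16 (SE, adjusted p = 2.61e-04) for Blm and 0.30 ± 0.18 (SE, adjusted p = 0.191) for Brca2. Between the genotypes, where 47.1% of genes were called higher and 23.5% lower, Blm had -0.81 ± 0.16 (SE, adjusted p = 0.00114) and the other 3 did not pass. These values rest on few fragments. Brca1 had at most about 53.4 to 64.2 in a Sting-/- DOX library, 85.5 to 118.1 in a WT DOX library and 18.4 to 30.9 in a WT saline library. Rad54l had 21.9 to 44.4, 54.4 to 77.8 and 6.4 to 16.2 in the same order.

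The Fanconi anaemia pathway unhooks crosslinks between DNA strands. Its 3 genes here were low throughout and higher in both doxorubicin groups than in saline. They summed to 2.59 to 2.78 FPKM in Sting-/- DOX hearts, 2.54 to 2.85 FPKM in WT DOX hearts and 1.04 to 1.22 FPKM in WT saline hearts. The 14 further genes of the pathway, counted below, summed to 80.3 to 83.9 FPKM in Sting-/- DOX, 54.1 to 56.4 in WT DOX and 45.4 to 47.1 in WT saline hearts. A sum does not give the level of each gene. Fancb, 1 of the 14, had 0.93, 0.87 and 0.87 FPKM in WT saline hearts. Fanca (Entrez gene 14087), a subunit of the core ubiquitin ligase, had 1.2, 1.63 and 1.35 FPKM in Sting-/- DOX, 1.37, 1.12 and 1.29 in WT DOX and 0.69, 0.86 and 0.69 in WT saline hearts. It rose with doxorubicin by 0.37 ± 0.098 (SE, adjusted p = 0.00524), which was not called after quantile normalization (0.12). Between the genotypes Fanca was at 0.080 (adjusted p = 0.456), with overlapping libraries, and after quantile normalization it was called lower (-0.24). Fanca averaged under 1 FPKM in saline hearts and reached the minimum for testing through the doxorubicin groups. The ligase acts on the pair Fancd2 and Fanci. Fancd2 had 0.59, 0.43 and 0.61 FPKM in Sting-/- DOX, 0.69, 0.51 and 0.62 in WT DOX and 0.07, 0.16 and 0.26 in WT saline hearts. Fanci had 0.99, 0.53 and 0.71 FPKM in Sting-/- DOX, 0.79, 0.91 and 0.82 in WT DOX and 0.28, 0.2 and 0.18 in WT saline hearts. In both, every doxorubicin library was above every saline library and the genotypes overlapped. Without the minimum and with a pseudocount of 0.1, the log2 fold change with doxorubicin was 1.48 ± 0.27 (SE, adjusted p = 9.84e-04) for Fancd2 and 1.56 ± 0.22 (SE, adjusted p = 1.71e-04) for Fanci. Between the genotypes neither passed in that fit. Fancd2 rested on at most about 19.6 to 27.3 fragments in each Sting-/- DOX library, 36.9 to 52.2 in each WT DOX library and 4.4 to 16.3 in each WT saline library.

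Markers of dividing cells were higher with doxorubicin, as were Chek1, Lig1 and most of these low genes. The 31 proliferation genes summed to 219 to 226 FPKM in Sting-/- DOX hearts, 163 to 184 FPKM in WT DOX hearts and 53 to 56.6 FPKM in WT saline hearts, and none was at 0 in a whole group. Of 30 tested, 29 rose and 1 fell with doxorubicin, against 45.3% and 21.5% of all genes. Between the genotypes 21 rose and 2 fell, against 54.1% and 29.7%. The minimum was taken over all libraries, so a proliferation gene low in saline hearts could be tested through the doxorubicin groups, where it is high. How many were was not counted, so the count of rises with doxorubicin is a description. The part of the proliferation genes in the repair genes' values was not tested.

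Among the pathways as listed here, only the 5 genes of non-homologous end joining had more falls than rises in both comparisons. No gene of the 5 rose with doxorubicin and 2 fell, against 45.3% higher and 21.5% lower among all genes. Between the genotypes 4 fell and 1 rose, against 29.7% lower and 54.1% higher. The 11 further end-joining genes, counted below, had more rises than falls, as all genes did. They summed to 92.6 to 100 FPKM in Sting-/- DOX, 66.4 to 68.2 in WT DOX and 54.9 to 57.9 in WT saline hearts. Summed over the 5 genes, the level was 22.8 to 23.3 FPKM in Sting-/- DOX hearts, 33.8 to 38.8 FPKM in WT DOX hearts and 36.8 to 37.8 FPKM in WT saline hearts. The median log2 fold change was -0.049 with doxorubicin and -0.47 between the genotypes, against 0.13 and 0.25 for all genes. Xrcc5 (Entrez gene 22596), the larger (Ku80) subunit of Ku, had 4.66, 4.49 and 3.49 FPKM in Sting-/- DOX, 9.04, 8.39 and 9.15 in WT DOX and 11.5, 10.8 and 11.1 in WT saline hearts. The 3 groups did not overlap. The log2 fold change of Xrcc5 was -0.30 ± 0.083 (SE, adjusted p = 0.00709) with doxorubicin and -0.93 ± 0.083 (SE, adjusted p = 4.96e-07) between the genotypes. Its partner Xrcc6 (Ku70) had 7.67, 8.88 and 9.96 FPKM in Sting-/- DOX, 14.1, 16.1 and 15.2 in WT DOX and 14.7, 14.6 and 15 in WT saline hearts. For Xrcc6 the Sting-/- DOX libraries lay below all others and the WT groups overlapped. Its log2 fold change was -0.72 ± 0.079 (SE, adjusted p = 3.06e-06) between the genotypes. With doxorubicin it was 0.034 (adjusted p = 0.72), where median-ratio scaling turned it to -0.20 and called it lower.

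Prkdc (Entrez gene 19090), the catalytic kinase that Ku recruits, differed from the Ku genes between the genotypes, with 2.39, 2.4 and 2.37 FPKM in Sting-/- DOX, 1.44, 1.76 and 1.58 in WT DOX and 1.99, 1.96 and 1.97 in WT saline hearts. As deposited, Prkdc was lowest in WT DOX hearts and highest in Sting-/- DOX hearts, without overlap. Its place above saline in Sting-/- DOX hearts (0.19) depended on the scaling. It was called lower there by median ratio (-0.19) and by quantile (-0.43). That call as deposited was also lost on leaving out any single saline or Sting-/- DOX library. The fall with doxorubicin was small, -0.20 ± 0.075 (SE, adjusted p = 0.0345), and was lost on leaving out WT saline replicate 1, 2 or 3 or WT DOX replicate 3 (-0.20 each) or WT DOX replicate 1 (-0.16) and with a replicate block (-0.20). The rise between the genotypes, 0.39 ± 0.075 (SE, adjusted p = 4.37e-04), was not called after quantile normalization (0.051). The ligase Lig4 and its partner Xrcc4, which seal the ends, both fell between the genotypes. Lig4 lay at 1.29 to 2.05 FPKM in Sting-/- DOX, 2.21 to 2.75 in WT DOX and 2.29 to 2.84 in WT saline hearts, with a log2 fold change of -0.47 ± 0.12 (SE, adjusted p = 0.00283). Xrcc4 lay at 5.82 to 6.18 FPKM in Sting-/- DOX, 6.47 to 9.94 in WT DOX and 6.71 to 7.16 in WT saline hearts, with -0.32 ± 0.11 (SE, adjusted p = 0.0179). Neither passed with doxorubicin (-0.049 and 0.15).

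Base excision repair held the largest fall and the largest rise with doxorubicin among the 34 tested genes, in Ung and Lig1. With doxorubicin 4 of 8 rose and 1 fell, and between the genotypes 2 rose and 3 fell. Summed, the 8 genes stood at 90.4 to 95.5 FPKM in Sting-/- DOX, 105 to 106 in WT DOX and 90.4 to 92.4 in WT saline hearts. Ung (Entrez gene 22256), the glycosylase that removes uracil from DNA, had 3, 2.79 and 2.56 FPKM in Sting-/- DOX, 10.9, 11 and 12.1 in WT DOX and 14.9, 16 and 17 in WT saline hearts. The 3 groups did not overlap, and the level differed by -0.46 ± 0.069 (SE, adjusted p = 8.72e-05) on the log2 scale with doxorubicin and by -1.71 ± 0.069 (SE, adjusted p = 2.60e-10) between the genotypes. Sting-/- DOX hearts averaged 2.78 ± 0.22 FPKM, WT DOX hearts 11.3 ± 0.652 FPKM and WT saline hearts 16 ± 1.05 FPKM (SD, n = 3 each). Of all tested genes, 4.04% had a lower log2 fold change than Ung between the genotypes. The call held in both comparisons under all 21 alternatives.

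Lig1 (Entrez gene 16881), the ligase that joins replication fragments and finishes long-patch repair, had 5.66, 6.92 and 5.76 FPKM in Sting-/- DOX, 6.98, 5.47 and 5.36 in WT DOX and 2.03, 1.61 and 1.82 in WT saline hearts. Both doxorubicin groups lay above saline and overlapped each other. The log2 fold change was 1.29 ± 0.10 (SE, adjusted p = 4.15e-07) in WT DOX against WT saline hearts, 3.26-fold between the means and above that of 94.2% of tested genes, and 0.040 (adjusted p = 0.73) between the genotypes. Lig3, the ligase that works with Xrcc1 on nicks and also serves mitochondria, lay at 5.05 to 5.6 FPKM in Sting-/- DOX, 6.35 to 7.12 in WT DOX and 5.51 to 6.48 in WT saline hearts. It fell between the genotypes, at -0.32 ± 0.072 (SE, adjusted p = 0.00118), and did not pass with doxorubicin (0.15).

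Xrcc1 (Entrez gene 22594), the scaffold that gathers the enzymes of single-strand break repair, had 16.8, 14.3 and 15.2 FPKM in Sting-/- DOX, 9.34, 7.99 and 8.39 in WT DOX and 7.69, 7.84 and 9.22 in WT saline hearts. The Sting-/- DOX libraries were above all WT libraries, and the WT groups overlapped. Xrcc1 rose by 0.78 ± 0.082 (SE, adjusted p = 2.04e-06) between the genotypes and did not pass with doxorubicin, at 0.051 (adjusted p = 0.602). Apex1 (Entrez gene 11792), the endonuclease that cuts the abasic site left by a glycosylase, was called in opposite directions in the 2 comparisons. Its levels were 18.6, 19.3 and 18.8 FPKM in Sting-/- DOX, 28, 31.8 and 31.9 in WT DOX and 19.4, 21.5 and 21.1 in WT saline hearts. WT DOX libraries lay above all others. Apex1 rose with doxorubicin by 0.54 ± 0.059 (SE, adjusted p = 6.17e-06) and was lower between the genotypes, at -0.66 ± 0.059 (SE, adjusted p = 4.46e-07). In Sting-/- DOX against WT saline hearts the log2 fold change was -0.12 (adjusted p = 0.0695), which did not pass as deposited but did as a fall under both other scalings (-0.64 and -0.51). Apex1 overlaps exons of Pip4p1 on the other strand, and Pip4p1 averaged 22.8, 15.5 and 12 FPKM in the Sting-/- DOX, WT DOX and WT saline hearts.

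The glycosylases for oxidised bases differed from Ung. Ogg1, which removes oxidised guanine, lay at 6.74 to 7.84 FPKM in Sting-/- DOX, 6.27 to 7.51 in WT DOX and 4.22 to 5.58 in WT saline hearts. It rose with doxorubicin by 0.44 ± 0.092 (SE, adjusted p = 0.00116), a call lost after quantile normalization (0.19), and was 0.060 (adjusted p = 0.554) between the genotypes. Neil1, which removes oxidised pyrimidines, lay at 5.93 to 6.39 FPKM in Sting-/- DOX, 4.64 to 5.14 in WT DOX and 3.49 to 4.35 in WT saline hearts. It was called higher in both comparisons (0.25 and 0.27). Neither call held by median ratio, the first was lost without WT saline replicate 3 (0.17), and after quantile normalization both values were negative (-0.015 and -0.017). Polb, the polymerase that fills the gap, stayed near one level, 29.2 to 32.1 FPKM in Sting-/- DOX, 28.9 to 31.7 in WT DOX and 28.9 to 31.1 in WT saline hearts. It passed in neither comparison as deposited, at 0.027 (adjusted p = 0.674) with doxorubicin and -0.014 (adjusted p = 0.812) between the genotypes, and was called lower in both under both other scalings.

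**Figure D3:**
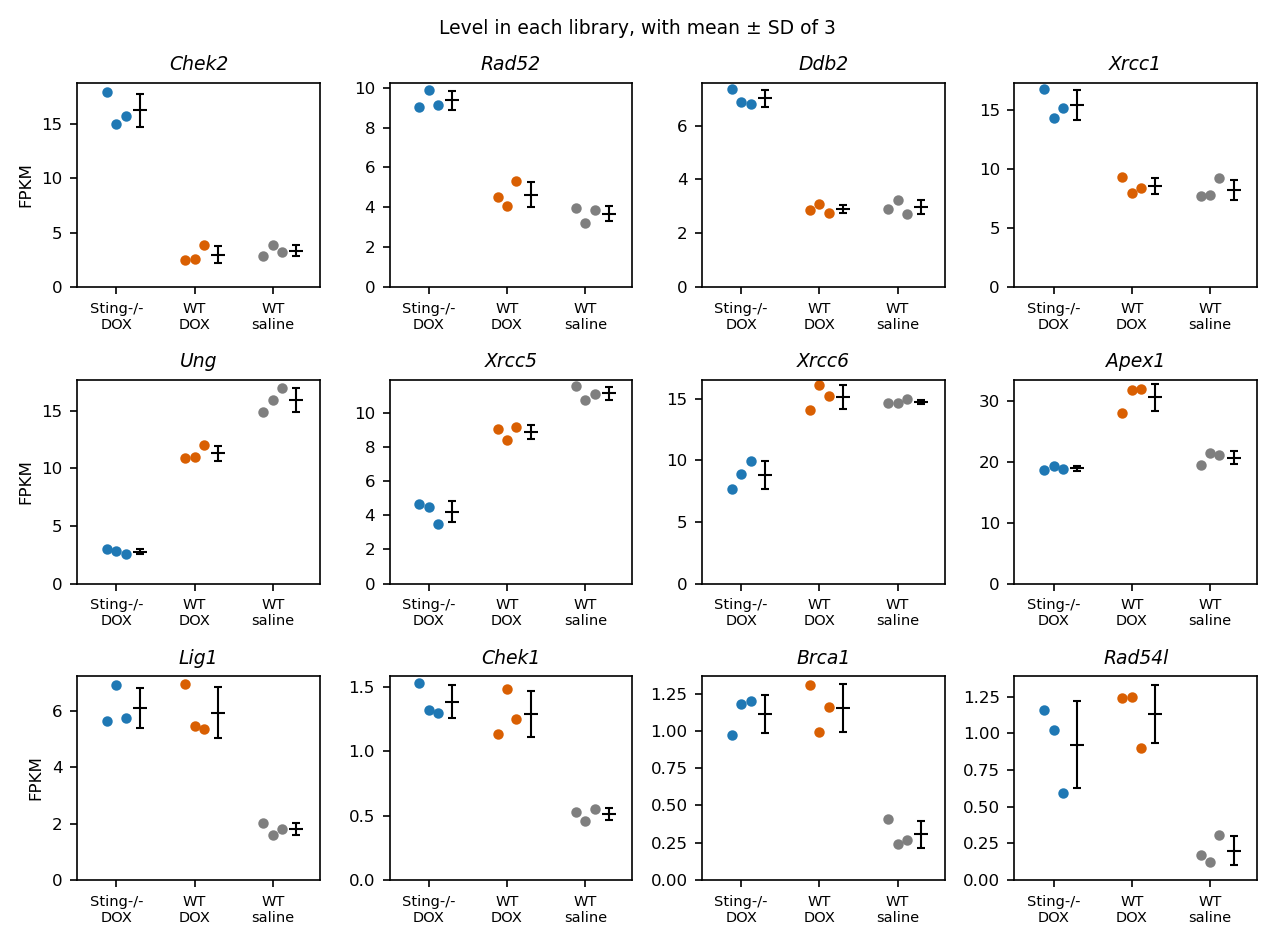
FPKM of 12 genes in each library (points) with the mean ± SD of each group (n = 3), for Sting-/- DOX, WT DOX and WT saline hearts. Chek2, Rad52, Ddb2 and Xrcc1 are set apart by high Sting-/- DOX libraries, Ung, Xrcc5 and Xrcc6 by low ones, and Lig1, Chek1, Brca1 and Rad54l by low saline libraries, and Apex1 is highest in WT DOX hearts.

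In nucleotide excision repair 3 of 6 genes rose with doxorubicin, against 45.3% of all genes. Between the genotypes 5 rose and 1 fell, against 54.1% and 29.7% of all genes. The summed level of the 6 genes was 129.5 to 134 FPKM in Sting-/- DOX, 113 to 118 in WT DOX and 91.9 to 95 in WT saline hearts. Its 2 damage sensors of the UV-DDB complex went opposite ways between the genotypes. Ddb2 (Entrez gene 107986), the subunit that binds damaged DNA, had 7.35, 6.87 and 6.8 FPKM in Sting-/- DOX, 2.85, 3.07 and 2.76 in WT DOX and 2.91, 3.24 and 2.73 in WT saline hearts. All Sting-/- DOX libraries were above all WT libraries, and the WT groups overlapped. The log2 fold change of Ddb2 was 1.04 ± 0.071 (SE, adjusted p = 3.68e-08) between the genotypes and -0.023 (adjusted p = 0.789) with doxorubicin. Ddb1 (Entrez gene 13194), its partner and the adaptor of the Cul4 ubiquitin ligases, was the most abundant of the 40 genes, with 55.5, 53.5 and 54.1 FPKM in Sting-/- DOX, 65.9, 63.9 and 64.7 in WT DOX and 49.5, 50.2 and 51.1 in WT saline hearts. The 3 groups of Ddb1 did not overlap. It rose with doxorubicin by 0.36 ± 0.036 (SE, adjusted p = 2.98e-06), a size of 0.11 and 0.18 under the other scalings, where the call held. Between the genotypes Ddb1 fell, at -0.25 ± 0.036 (SE, adjusted p = 3.75e-05).

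Ercc1, the non-catalytic partner in the nuclease that cuts 5′ of the lesion, and Ercc2, a helicase of TFIIH, both rose between the genotypes, by 0.60 ± 0.051 (SE, adjusted p = 3.09e-07) and 0.89 ± 0.061 (SE, adjusted p = 4.08e-08). Ercc1 lay at 43.7 to 47.6 FPKM in Sting-/- DOX, 28.4 to 31.5 in WT DOX and 23.2 to 24.4 in WT saline hearts. Its rise with doxorubicin, 0.31 ± 0.051 (SE, adjusted p = 2.21e-04), was lost under both other scalings (0.064 and 0.12). Ercc2 lay at 9.98 to 10.6 FPKM in Sting-/- DOX, 4.93 to 5.41 in WT DOX and 4.69 to 5.18 in WT saline hearts and did not pass with doxorubicin, where it was 0.061 as deposited and negative under both other scalings (-0.15 and -0.19). Xpa, which verifies the lesion, lay at 9.08 to 11.7 FPKM in Sting-/- DOX, 7.44 to 8.7 in WT DOX and 5.93 to 6.96 in WT saline hearts. It was just past the threshold with doxorubicin, at 0.24 (adjusted p = 0.0498), and lost that call under 13 of the alternatives, among them all 3 that left out a saline library. Between the genotypes it rose by 0.29 ± 0.097 (SE, adjusted p = 0.0159), a call lost under both other scalings (0.023 and 0.020), without WT DOX replicate 1 (0.25) and without Sting-/- DOX replicate 1 (0.18). Xpc, which finds distorted helices, lay at 5.26 to 5.67 FPKM in Sting-/- DOX, 4.49 to 4.92 in WT DOX and 5.14 to 5.45 in WT saline hearts. It was 0.20 (adjusted p = 0.00994) between the genotypes, a value that turned negative under the other scalings (-0.047 and -0.091). With doxorubicin Xpc was at -0.15, which did not pass as deposited and was called lower under 8 alternatives.

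Targets of p53 were set beside these genes. The 20 on the list summed to 550 to 558 FPKM in Sting-/- DOX hearts, 537 to 558 FPKM in WT DOX hearts and 577 to 617 FPKM in WT saline hearts. Of these sums Ccng1 alone made 76.2 to 77.3, 249 to 255 and 363 to 394 FPKM. The sums therefore do not show how the list as a whole moved. Of the 20, 12 rose and 4 fell with doxorubicin, against 45.3% and 21.5% of all genes. Between the genotypes 11 rose and 6 fell, against 54.1% and 29.7%. The list was mixed: Cdkn1a, the cell-cycle inhibitor p21, led the rises with doxorubicin at 2.10 and Sesn1 the falls at -0.61. Between the genotypes the cell-death gene Bbc3 led the rises at 1.95 and Ccng1 the falls at -1.70. The list's median log2 fold change was 0.22 with doxorubicin, against 0.13 for all genes, and 0.52 between the genotypes, against 0.25. The part of the p53 targets in the repair genes' values was not tested.

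Both mismatch repair genes were called higher between the genotypes, and Msh6 also with doxorubicin. Their summed level was 7.62 to 8.29 FPKM in Sting-/- DOX, 5.98 to 6.79 in WT DOX and 4.71 to 4.9 in WT saline hearts. Msh6 (Entrez gene 17688), which helps to recognise mispaired bases, had 4.79, 4.91 and 4.97 FPKM in Sting-/- DOX, 3.88, 3.78 and 4.02 in WT DOX and 2.82, 2.93 and 2.85 in WT saline hearts. The 3 groups did not overlap, and Msh6 rose by 0.34 ± 0.060 (SE, adjusted p = 3.49e-04) with doxorubicin and by 0.27 ± 0.060 (SE, adjusted p = 0.00131) between the genotypes. The first call was lost after quantile normalization (0.061) and the second under both other scalings (0.027 and -0.022). Pms2, an endonuclease subunit, lay at 2.83 to 3.38 FPKM in Sting-/- DOX, 2.1 to 2.77 in WT DOX and 1.89 to 2.05 in WT saline hearts. It was 0.20 (adjusted p = 0.0607) with doxorubicin, which did not pass, and 0.25 (adjusted p = 0.0185) between the genotypes. The second call was lost under both other scalings (0.038 and -0.075), without WT DOX replicate 1 (0.18) and without Sting-/- DOX replicate 2 (0.20).

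Read across both comparisons, which share the WT DOX libraries, the 34 genes fall as follows. Chek1, Fanca, Lig1, Ogg1 and Rad50 were called higher with doxorubicin and not called between the genotypes. Atr, Chek2, Ddb2, Ercc2, Pms2, Trp53bp1, Wrn, Xpc, Xrcc1 and Xrcc3 were called higher between the genotypes and not with doxorubicin, and Lig3, Lig4, Nbn, Xrcc2, Xrcc4 and Xrcc6 were called lower between the genotypes and not with doxorubicin. Ercc1, Mdc1, Msh6, Neil1, Rad52 and Xpa were called higher in both, Ung and Xrcc5 lower in both. Apex1 and Ddb1 were higher with doxorubicin and lower between the genotypes, and Prkdc was the reverse. Atm and Polb were called in neither. The line between called and not called moved with the scaling: with doxorubicin, Nbn, Atm, Trp53bp1, Chek2, Xrcc2, Polb, Ddb2, Xpc and Ercc2 were called lower under both other scalings, and between the genotypes Rad50, Atm and Polb were.

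Sting-/- DOX and WT saline hearts differ in both genotype and treatment. Between them 22 of the 34 genes were higher, 7 lower and 5 did not pass, or 64.7% and 20.6%, against 63.0% higher and 25.9% lower among all genes. Chek2 was higher by 2.0 ± 0.13 (SE, adjusted p = 1.13e-08), Lig1 by 1.33 ± 0.10 (SE, adjusted p = 8.72e-08) and Rad52 by 1.15 ± 0.090 (SE, adjusted p = 9.20e-08). Ung was lower, at -2.17 ± 0.069 (SE, adjusted p = 1.61e-11), as was Xrcc5, at -1.23 ± 0.083 (SE, adjusted p = 2.32e-08). This comparison shares its libraries with the other two and adds no independent evidence.

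**Figure D4:**
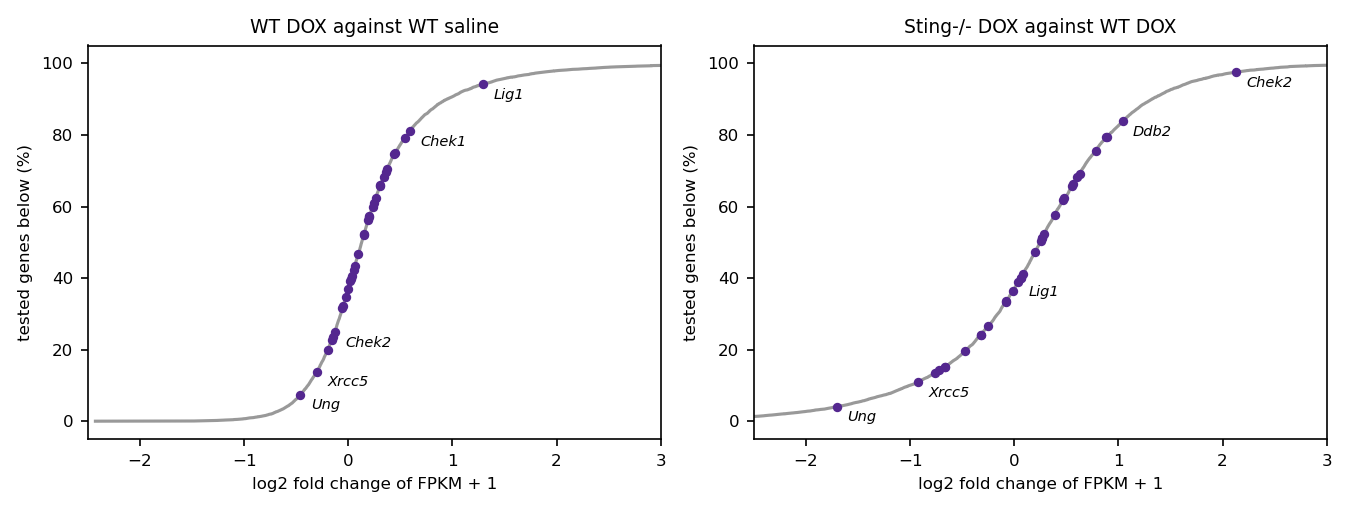
Cumulative distribution of the log2 fold change over all 12485 tested genes (line) with the 34 tested repair genes as points, for Sting-/- DOX against WT DOX and WT DOX against WT saline hearts. The points run along the whole curve, with Chek2 above 97.6% of genes and Ung above 4.04% between the genotypes, and Lig1 above 94.2% with doxorubicin.

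Ratios of partner proteins' transcripts within a library stay the same when the whole library is multiplied by a factor, as in median-ratio scaling, but can change under quantile normalization. These pairs were chosen after the values were seen, and no test was made. Xrcc5 stood to Xrcc6 at 0.488 (0.35 to 0.608 over the 3 libraries) in Sting-/- DOX hearts, 0.587 (0.52 to 0.639) in WT DOX hearts and 0.755 (0.735 to 0.786) in WT saline hearts. The 2 doxorubicin groups overlapped in this Ku ratio and both lay below saline. Nbn to Rad50 was 1.79 (1.64 to 2), 2.77 (2.49 to 2.98) and 4.11 (3.96 to 4.39) in the same order, with no overlap among the groups. Lig3 to Xrcc1 was 0.339 (0.332 to 0.352) in Sting-/- DOX hearts, 0.797 (0.743 to 0.891) in WT DOX hearts and 0.735 (0.703 to 0.784) in WT saline hearts, so that the Sting-/- DOX hearts alone stood apart. Ddb2 to Ddb1 was 0.129 (0.126 to 0.132), 0.0447 (0.0427 to 0.0481) and 0.0589 (0.0534 to 0.0645), with each group apart from the others. Chek2 to Chek1 was 11.7 (11.3 to 12.1), 2.34 (1.76 to 3.07) and 6.57 (5.43 to 8.41), likewise without overlap, highest in Sting-/- DOX and lowest in WT DOX hearts. Lig4 to Xrcc4 overlapped between groups, at 0.26 (0.209 to 0.342), 0.332 (0.264 to 0.425) and 0.387 (0.32 to 0.423).

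Other genes of the same pathways are counted over whole lists, and those named had the largest called changes. The counts stand beside 45.3% higher and 21.5% lower among all genes tested with doxorubicin, and 54.1% and 29.7% between the genotypes. Clspn, Dna2 and Neil3 averaged under 1 FPKM in saline hearts and were tested only through the doxorubicin groups, where they are high, so their rises with doxorubicin are descriptions. Fancb, counted among the further Fanconi genes, also lay under 1 FPKM in every saline library. Genes counted but not named were not checked for this. Among 21 further sensing and signalling genes 10 rose and 1 fell with doxorubicin and 11 rose and 5 fell between the genotypes. Clspn, the adaptor through which Atr reaches Chek1, led the rises with doxorubicin (log2 fold change 0.98), with 1.61, 1.49 and 1.31 FPKM in Sting-/- DOX hearts, 1.53, 1.38 and 1.78 FPKM in WT DOX hearts and 0.23, 0.35 and 0.31 FPKM in WT saline hearts. Timeless, a replication fork protector, led those between the genotypes (1.62), and the stress kinase Mapkapk2 fell in both comparisons (-0.13 and -1.30). Of 14 tested among 21 recombination genes 6 rose and 0 fell with doxorubicin, led by the nuclease Dna2 (0.70), and 6 rose and 4 fell between the genotypes, with the helicase Recql5 at 1.40 and the single-strand binding protein Rpa1 at -0.50. The 13 tested further Fanconi genes gave 8 rises and 1 fall with doxorubicin and 10 and 1 between the genotypes. Faap24 led with doxorubicin at 0.63, which was not called after quantile normalization (0.34), and Fancc led between the genotypes at 1.17, while the nuclease Fan1 fell in both (-0.24 and -0.38). The first of these was lost without WT saline replicate 1 or 3 (-0.22 and -0.25) and without WT DOX replicate 2 or 3 (-0.26 and -0.17), and without the minimum at a pseudocount of 0.1 (-0.34).

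In end joining, the 11 further genes gave 5 rises and 2 falls with doxorubicin and 8 and 1 between the genotypes. Rises outnumbered falls among all genes too, at 45.3% and 21.5% with doxorubicin and 54.1% and 29.7% between the genotypes. The nuclease Artemis, Dclre1c, rose most with doxorubicin (0.63) and the polymerase Polm between the genotypes (1.16). Polq, the polymerase of the alternative end-joining route, fell in both (-0.69 and -0.42), with 0.77, 0.44 and 0.43 FPKM in Sting-/- DOX hearts, 1.16, 1.04 and 0.99 FPKM in WT DOX hearts and 2.29, 2.46 and 2.23 FPKM in WT saline hearts. It averaged under 1 FPKM in Sting-/- DOX hearts and was tested through the WT groups, so its fall between the genotypes is a description. The 14 tested base excision genes gave 10 rises and 1 fall with doxorubicin and 8 and 2 between the genotypes. The glycosylase Neil3 rose with doxorubicin by 0.94, with 4.39, 3.4 and 3.69 FPKM in Sting-/- DOX hearts, 1.55, 2.24 and 1.96 FPKM in WT DOX hearts and 0.68, 0.43 and 0.44 FPKM in WT saline hearts. Apex2, a relative of Apex1, was lower with doxorubicin by -0.29, a call lost without WT saline replicate 1 or 3 (-0.16 and -0.31) and without WT DOX replicate 2 or 3 (-0.25 and -0.29), and without the minimum at a pseudocount of 1 or 0.1 (-0.29 and -0.35). Between the genotypes Hmces, which shields abasic sites, rose by 0.99 and Pole3 was at -0.53. Of 18 nucleotide excision genes 9 rose and 0 fell with doxorubicin, led by Ercc8 (0.43, not called after quantile normalization at 0.15), and 10 rose and 4 fell between the genotypes, led by Xab2 (1.12) and the cyclin Ccnh (-0.91). The 3 further mismatch genes had 0 rises and 1 fall in each comparison, Mlh3 (-0.19) and Pms1 (-0.31). Pms1 had 0.85, 0.93 and 1.06 FPKM in Sting-/- DOX hearts, 1.47, 1.35 and 1.42 FPKM in WT DOX hearts and 1.55, 1.68 and 1.64 FPKM in WT saline hearts. It averaged under 1 FPKM in Sting-/- DOX hearts and was tested through the WT groups, so its fall is a description. The call of Mlh3 was lost without WT saline replicate 1 or 2 (-0.19 and -0.18) and without WT DOX replicate 2 or 3 (-0.20 and -0.17), and without the minimum at a pseudocount of 0.1 (-0.25).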

How the data were processed

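RNA-seq of mouse hearts was deposited by the authors as 1 table of FPKM values per library. The submitters' processing notes name HISAT2 2.0.4, Bowtie2 2.2.5, RSEM 1.2.12 and the build GRCm39, with no role or order, and per the labels' protocols total RNA was made into libraries with an MGI kit. Strandedness and filters are not given in the sources used here. A RefSeq table of GRCm38.p6 gave symbols for 16825 of 16873 gene IDs, and the promoter windows were RefSeq windows of that build. Exon overlaps, and the transcript lengths behind the depth and fragment estimates, came from a GENCODE annotation of the mouse genome.

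Computed here from these values were log2(FPKM + 1) and limma 3.58.1 in R 4.3.3 with a trended variance, all 9 libraries in 1 fit (6 residual degrees of freedom), over genes with a mean of 1 FPKM or more, with Benjamini-Hochberg adjustment over all of them. The code was tested on simulated data. FPKM keeps no counts. Depth was read from the steps of low values, of which 47.3% to 56% fell within 0.1 fragments of a whole number, so it is approximate and no count test was run. Within groups, libraries correlated across genes at 0.996 to 0.998, and no pair was identical.

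The genes and lists were chosen with earlier results of these data known. Genes are given by library where they had, in their pathway, the largest called change in a direction, were called in opposite directions, or averaged under 1 FPKM, and as ranges otherwise. For further pathway genes, those with the largest called change per list and direction are named. There were 21 alternatives: pseudocounts of 0.1 and 0.5, filters, median-ratio, quantile and TPM scaling, other variance models, a replicate block, fits of 2 groups and leaving out each library.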

Additional observations from a re-analysis of the deposited data

How the results depend on the processing

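The log2 fold changes of the named genes were recomputed under 21 alternatives, giving 2196 values. Of these, 2024 kept their direction and their side of the threshold, and 64 changed sign. Another 69 lost a call and 39 gained one with the sign kept. Some that changed sign also lost a call, as Rad52 did with doxorubicin by quantile, or gained one, as Polb did with doxorubicin by median ratio. With doxorubicin (WT DOX against WT saline) the 13 rises became 8 by median ratio, 5 by quantile and 7 at a mean of 5 FPKM or more, where fewer of the genes were tested, and the 3 falls became 13 and 14. Between the genotypes (Sting-/- DOX against WT DOX) the 17 rises became 11 by quantile and 9 at the higher minimum. In Sting-/- DOX against WT saline hearts the 22 rises became 13, 9 and 10 by median ratio, quantile and higher minimum, and the 7 falls 14 and 15 under the 2 scalings. Leaving out 1 library gave 11 to 16 rises and 2 to 4 falls with doxorubicin, 15 to 17 and 10 between the genotypes, and 21 to 22 and 6 to 8 in the third comparison. By median ratio the sign turned with doxorubicin for Ercc2 (-0.15), Lig3 (-0.070), Polb (-0.22), Trp53bp1 (-0.20), Wrn (-0.072), Xrcc1 (-0.18), Xrcc4 (-0.069) and Xrcc6 (-0.20), between the genotypes for Chek1 (-0.10), Fanca (-0.083), Lig1 (-0.21), Ogg1 (-0.20) and Xpc (-0.047), and in the third comparison for Ddb1 (-0.43) and Prkdc (-0.19). By quantile the sign turned with doxorubicin for Atr (-0.073), Ercc2 (-0.19), Lig3 (-0.10), Neil1 (-0.015), Pms2 (-0.086), Polb (-0.14), Rad52 (-0.0043), Trp53bp1 (-0.23), Wrn (-0.19), Xpa (-0.0022), Xrcc1 (-0.18), Xrcc3 (-0.095), Xrcc4 (-0.084) and Xrcc6 (-0.18), between the genotypes for Chek1 (-0.26), Fanca (-0.24), Lig1 (-0.24), Msh6 (-0.022), Neil1 (-0.017), Ogg1 (-0.22), Pms2 (-0.075) and Xpc (-0.091), and in the third comparison for Ddb1 (-0.12), Fanca (-0.12) and Prkdc (-0.43). With TPM scaling the sign turned with doxorubicin for Polb (-0.0036) and Trp53bp1 (-0.0070), and between the genotypes for Polb (0.051). With sample weights the sign turned with doxorubicin for Chek2 (0.0033) and Nbn (0.061), and between the genotypes for Polb (0.013). Leaving out 1 library turned the sign with doxorubicin for Ddb2 (-0.065 to 0.027), Lig4 (-0.12 to 0.017), Nbn (-0.058 to 0.057), Trp53bp1 (-0.047 to 0.083), Xrcc1 (-0.0059 to 0.12), Xrcc4 (-0.0079 to 0.27) and Xrcc6 (-0.0089 to 0.080), and between the genotypes for Lig1 (-0.040 to 0.14), Ogg1 (-0.0034 to 0.11) and Polb (-0.0545 to 0.0127), none of them called as deposited. The cause was not tested. A replicate block gave 12 rises and 2 falls, 17 and 10, and 21 and 7 in the 3 comparisons. The numbers share no stated source, and same-numbered libraries did not deviate together (correlations of -0.032 to 0.10 over 9 pairs, 1 of them over 0.1), so the block is no paired analysis. Depth limits the values of Brca1, Brca2, Rad54l, Blm, Fancd2 and Fanci, the 6 genes below the minimum.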
